A study of Mus with 6 samples.

Results

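The genes described here are the ATP-binding cassette (ABC) family, taken as the rows of the deposited table whose symbols name subfamilies A to G (Abca to Abcg followed by a number). The rule uses the symbol alone and found 49 of 18887 genes, namely 15 in subfamily A, 10 in B, 10 in C, 4 in D, 1 in E, 3 in F and 6 in G. The measurements come from RiboTag precipitates, in which an epitope-tagged ribosome subunit, made only in a selected cell population, brings down ribosomes and the mRNA on them. The labels name whole mouse brain as the tissue and microglia, the tissue macrophages of brain, as the cells targeted. The control group comprised 2 libraries, titled MG_IP with the genotype Ctr. The knockout group comprised 4 libraries, titled IRKO_IP with the genotype KO, which the study's title allows to be read as insulin receptor loss. The sources used here do not give strain, age, the promoter that drives the tag or any recombinase, or whether animals were pooled. Each library held 13858978 to 19010680 recovered reads.

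ABC proteins bind and hydrolyse ATP to move substrates across membranes. Subfamily A and several G members move sterols and phospholipids and feed lipoprotein particles. B and C members export drugs, bile compounds and conjugated anions or sit in the mitochondrial membrane. D members carry fatty acids into peroxisomes, apart from a lysosomal one. E and F members have ATP-binding domains but no membrane part and act on ribosomes. In brain, Abcb1a and Abcg2 are known as efflux pumps of the capillary wall, and Abca1 and Abcg1 as cholesterol exporters of glia.

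Insr, the insulin receptor gene, stood at 565 and 532 normalized counts in the controls and at 357, 366, 290 and 340 in the IRKO libraries. It fell by 0.70 ± 0.135 on the log2 scale (SE, adjusted p = 0.00211). The microglia markers were not the only ones present. Of 25 microglia markers 23 rose, with summed normalized counts of 138416 to 182938 in the controls and 322517 to 443139 in IRKO. All 20 astrocyte markers fell, from 912377 to 1161405 in the controls to 80481 to 115960 in IRKO, and 14 of 18 neuron markers rose. No marker of these 3 lists was at 0 in every library. Loss of cells of a type, less RNA per cell and a difference in how much of that RNA the precipitates carried cannot be told apart in such bulk data. How far these shifts enter the values of the ABC genes was not tested, so each rise of an ABC gene below is also given with libraries scaled to an equal mean log2 level of the 25 microglia markers. That scaling lowered the tested ABC genes by 1.27 to 1.42 and moved the median change of all genes from 0.02 to −1.39.

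Of the 49 ABC genes, 39 reached 10 normalized counts in at least 2 libraries and were tested, and 10 did not. Among the 39, 12 rose (30.8%) and 12 fell (30.8%) at a limma adjusted p under 0.05. Abcc9, counted among the rises, reached the filter only in IRKO and is no support for a direction. Over all 14698 tested genes 26.6% rose, 29.0% fell and 55.6% did either, so the share of ABC genes that changed (61.5%) was near the background. The groups did not overlap in 27 of them (69.2%), against 67.6% of all genes. All 4 IRKO values exceeded both controls in 12 (32.8% of all genes) and were below both in 15 (34.8% of all genes). The median log2 change was −0.06, beside 0.02 for all genes. With libraries scaled to the microglia list, no ABC gene was called higher and 28 were called lower. That scaling called 77 of all 14698 tested genes higher and 11563 lower. Leaving out control replicate 1 left only control replicate 2, and fewer genes were called, in the family and over all genes. The median change there was −0.02 for ABC genes and 0.01 for all genes.

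By subfamily, 3 of the 4 tested Abcg genes rose as deposited, though none was called higher scaled to the microglia list. All 3 Abcf genes fell, as did Abcd2, Abcd3 and Abcd4, and among Abca, Abcb and Abcc genes some rose and some fell. Falls reached −2.35 (Abcd4) and rises 2.00 (Abca9) on the log2 scale. The plot of changes by subfamily shows 37 tested genes with their 95% intervals.

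**Figure D1:**
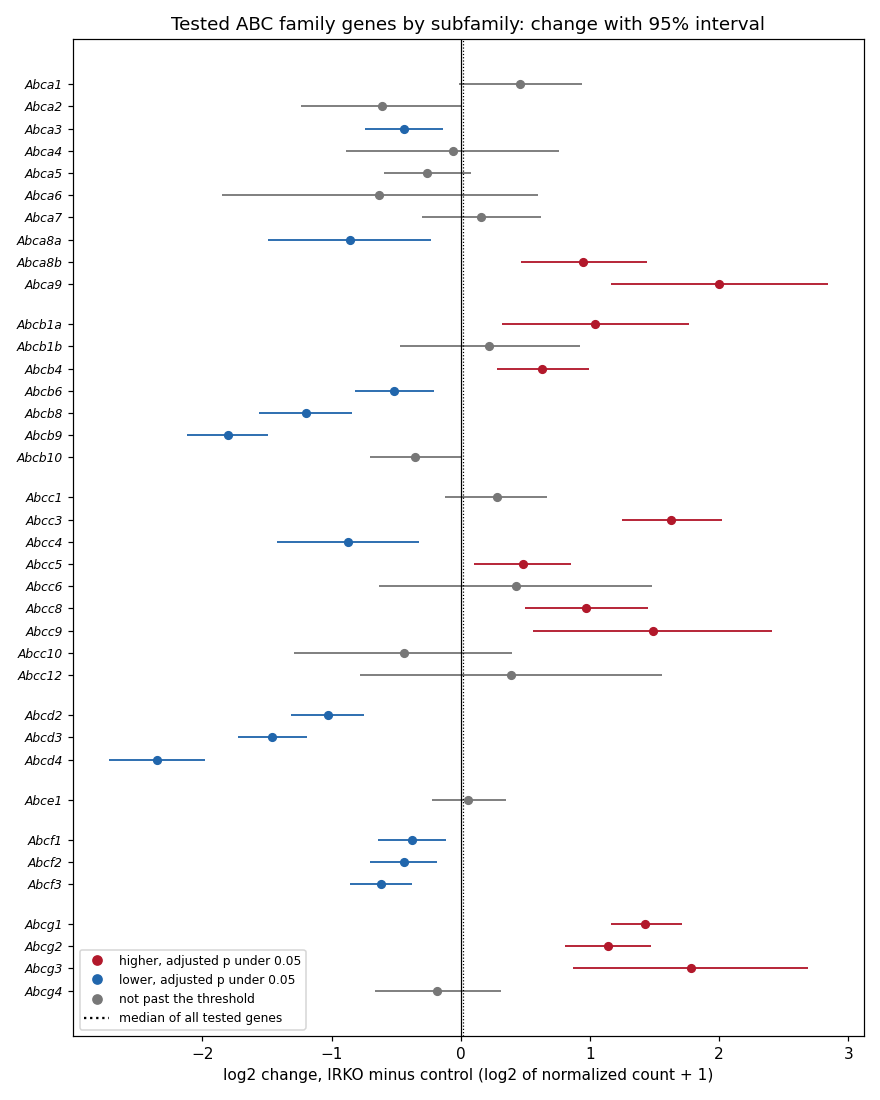
The log2 change (IRKO minus control, on log2 of the normalized count + 1) of 37 tested ABC genes is plotted with its limma 95% interval, grouped by subfamily; red and blue points passed an adjusted p of 0.05 upwards and downwards, and the dotted line is the median of all tested genes. As deposited, 11 genes lie to the right and 12 to the left past the threshold, from −2.35 for Abcd4 to 2.00 for Abca9; with libraries scaled to the microglia list none of the 11 on the right was called higher.

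In the G subfamily, short transporters that act as dimers, Abcg1, Abcg2 and Abcg3 rose and Abcg4 did not pass; scaled to the microglia list, Abcg2 turned to −0.27 and the other rises were no longer called. Abcg1, which moves cholesterol from macrophages and glia to lipoproteins, had 362 and 398 normalized counts in the controls and 1033, 1095, 906 and 1085 in IRKO. Every IRKO library was above both controls, and the spread within each group was small. The log2 change was 1.43 ± 0.122 (SE), a 2.7-fold rise with an adjusted p of 1.73e-05, and 0.01 scaled to the microglia list (adjusted p = 0.955). Abcg2, a drug and urate exporter of barrier tissues, had 110 and 108 normalized counts in the controls and 266, 229, 224 and 250 in IRKO. The groups were again apart, with a change of 1.14 ± 0.148 (adjusted p = 0.00022). Abcg3, a rodent relative of Abcg2, had 19.1 and 10.7 normalized counts in the controls and 65.4, 72, 30.1 and 49.7 in IRKO. Its lowest IRKO value was above both controls, although the IRKO values spread widely, and the change was 1.78 ± 0.405 (adjusted p = 0.00496) and 0.42 scaled to the microglia list. Abcg2 and Abcg3 are related in sequence, and reads shared between them would make their separate values uncertain. Abcg4, a sterol exporter found mainly in nervous tissue, had 408 and 399 normalized counts in the controls and 259, 327, 444 and 432 in IRKO. The groups overlapped, and the 95% interval of its change ran from −0.66 to 0.31. The difference between the changes of Abcg1 and Abcg4 was not tested.

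Abcg5 and Abcg8, which pair to export sterols from liver and gut, did not pass the filter. Abcg5 had 5.81 and Abcg8 2.9 normalized counts in control replicate 2, and both were at 0 in control replicate 1. In IRKO, replicate 2 had 1.97 for Abcg5 and 0.986 for Abcg8, and the other 3 libraries were at 0. Their gene spans overlap by 6710 bases on chromosome 17.

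**Figure D2:**
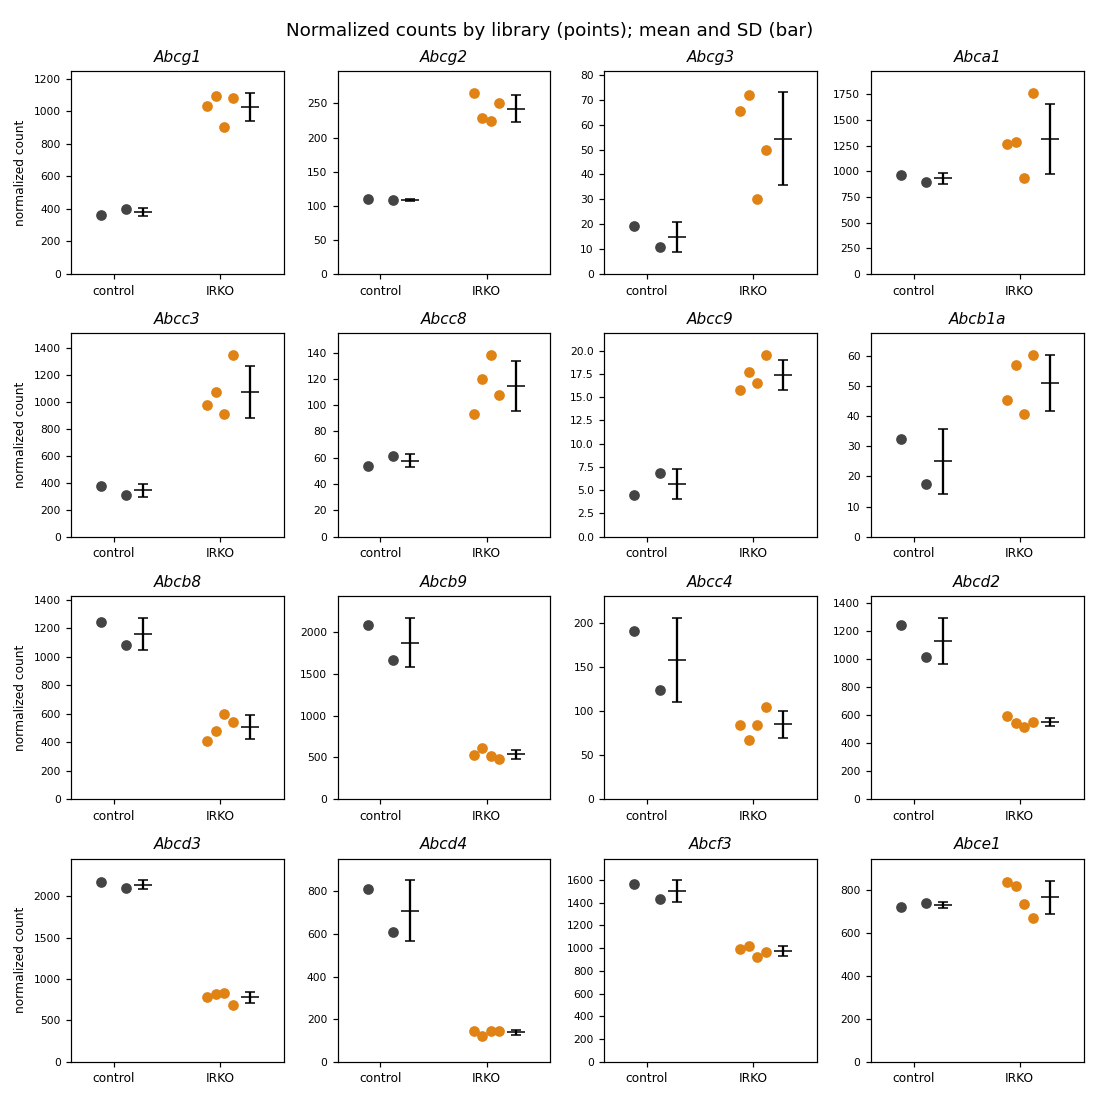
Normalized counts of 16 ABC genes are plotted by library, with controls (2 points) and IRKO (4 points) on linear axes that start at 0 and bars for the mean and SD of each group. Abcg1 to Abcg3, Abcc3, Abcc8, Abcc9 and Abcb1a sit higher in every IRKO library as deposited. Of these, only Abcg1, Abcg3, Abcc3 and Abcc9 stayed above 0 in mean log2 change when scaled to the microglia list. Abcb8, Abcb9, Abcc4, Abcd2 to Abcd4 and Abcf3 sit lower in every IRKO library as deposited, and the groups overlap for Abca1 and Abce1. The microglia scaling lowers every tested ABC gene and is no check on these falls.

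Subfamily A, the large lipid transporters, had 10 tested genes, of which Abca9 and Abca8b rose, Abca3 and Abca8a fell and 6 did not pass; scaled to the microglia list, 8 were called lower and none higher. Abca1 loads cholesterol and phospholipid onto apolipoproteins. It had 967 and 893 normalized counts in the controls and 1265, 1283, 937 and 1767 in IRKO. IRKO replicate 3 lay between the controls and the other 3 lay above them. The change of 0.46 ± 0.211 missed the threshold (adjusted p = 0.0893), passed it without IRKO replicate 3 (0.61, adjusted p = 0.0159), under quantile normalization (0.68, 0.0259) and with DESeq2 (0.50, 0.0435), and turned to −0.96 scaled to the microglia list (adjusted p = 0.000491). Abca7, a phospholipid transporter linked to phagocytosis, had 268 and 161 normalized counts in the controls and 212, 251, 233 and 233 in IRKO. All 4 IRKO values fell between the 2 controls, and the 95% interval of the change was −0.30 to 0.62.

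Abca2, an endosomal and lysosomal transporter abundant in oligodendrocytes, had 1944 and 1206 normalized counts in the controls and 677, 923, 1197 and 1339 in IRKO. The groups overlapped through IRKO replicate 4. Its change of −0.61 ± 0.276 missed the threshold (adjusted p = 0.085) and passed it without control replicate 2 (−0.96, adjusted p = 0.0382), without IRKO replicate 4 (−0.75, 0.0485) and with DESeq2 (−0.60, 0.0454). Summed oligodendrocyte markers stood at 27788 to 36198 in the controls and 37365 to 68793 in IRKO, with 7 of 14 higher and 1 lower; scaled to the microglia list none was higher and 5 were lower. Their part in the Abca2 values was not tested. Abca3, known for loading lipid into lung surfactant bodies, had 1497 and 1349 normalized counts in the controls and 1050, 992, 939 and 1228 in IRKO. All IRKO values were below both controls, and Abca3 fell by 0.44 ± 0.131 (adjusted p = 0.0183). The call was lost without control replicate 1 (−0.37, adjusted p = 0.13), under quantile normalization (−0.20, 0.243) and with edgeR on the 5 libraries other than IRKO replicate 1 (−0.41, 0.0546). Abca4, the retinoid flippase of photoreceptors, ranged from 41.6 to 90 normalized counts in the controls and from 45.3 to 87.2 in IRKO, with no separation.

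Abca8b, Abca8a, Abca9, Abca6 and Abca5 lie next to each other on chromosome 11, from 109932206 to 110337723 in GRCm38.p6, with no other gene of the RefSeq table within that span. Of these 5, Abca9 and Abca8b rose as deposited, Abca8a fell, and Abca6 and Abca5 did not pass. Abca9 had 183 and 118 normalized counts in the controls and 503, 428, 482 and 1179 in IRKO. All IRKO values exceeded both controls, with replicate 4 far above the rest. Abca9 rose by 2.00 ± 0.374 (adjusted p = 0.00175), by 1.67 without IRKO replicate 4 (adjusted p = 0.00047) and by 0.58 scaled to the microglia list, where it was no longer called (0.0797). This was the largest rise among the tested ABC genes, and 0.939% of tested genes had a larger change.

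Abca8b had 101 and 70.7 normalized counts in the controls and 194, 182, 145 and 143 in IRKO. Abca8a, its neighbour and close relative, had 100 and 110 in the controls and 69.3, 37.5, 68 and 62.3 in IRKO. Thus Abca8b was higher and Abca8a lower in each IRKO library than in both controls. Abca8b rose by 0.95 ± 0.215 (adjusted p = 0.00478) and turned to −0.46 scaled to the microglia list. Abca8a fell by 0.86 ± 0.279 (adjusted p = 0.0269), and lost its call without control replicate 1 (−0.93, adjusted p = 0.0793) or control replicate 2 (−0.79, 0.123). The 2 genes are paralogs that may share reads, so their separate values are uncertain. Summed, they stood at 201 and 181 normalized counts in the controls and 263, 220, 213 and 206 in IRKO, a change of 0.23 ± 0.156 that missed the threshold (adjusted p = 0.232).

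Of the other neighbours, Abca6 had 12.4 and 13.6 normalized counts in the controls and 4.95, 5.91, 8.74 and 15.6 in IRKO. Only IRKO replicate 4, the library with the highest Abca9, was above the controls. Abca5, an endolysosomal transporter, had 270 and 224 in the controls and 188, 222, 212 and 202 in IRKO. Its groups did not overlap, but the change of −0.26 ± 0.15 missed the threshold (adjusted p = 0.171). Abca9 and its neighbours are known to be expressed in fibroblasts. The list of 9 fibroblast and meningeal markers had 6 higher and 1 lower, with a median of 1.74 (0.32, with 2 higher and 3 lower, scaled to the microglia list). Col1a1, Col1a2, Col3a1, Dcn and Lum, genes of the fibroblast matrix, rose by 1.65 to 3.08 as deposited. The list summed to 10768 to 11089 in the controls and 6463 to 14187 in IRKO, and Igfbp2, the gene that fell, made up 9053 and 9050 of the control sums. The part of these cells in the Abca9 values was not tested.

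**Figure D3:**
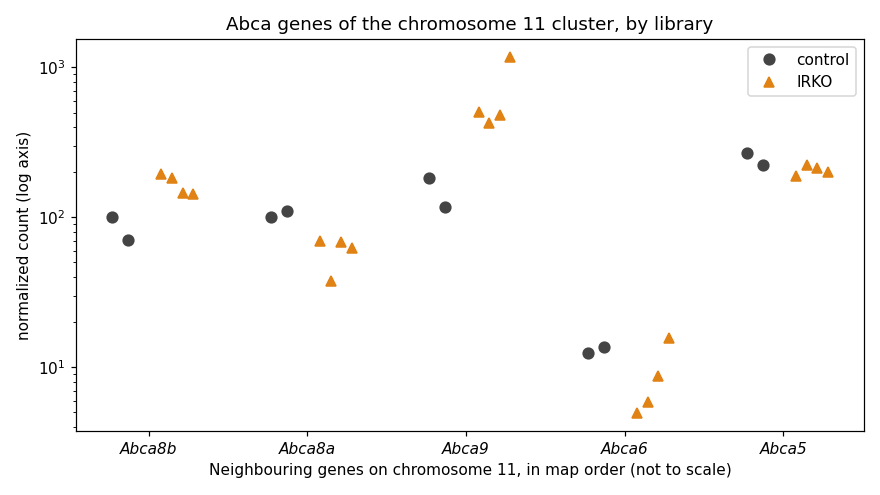
Normalized counts of the 5 neighbouring Abca genes on chromosome 11 are plotted by library on a log axis, in map order but not to scale (circles, 2 controls; triangles, 4 IRKO). Abca8b and Abca9 sit above both controls in every IRKO library, Abca8a and Abca5 sit below them, and Abca6 overlaps; scaled to the microglia list, the mean log2 change of Abca8b turned negative (−0.46).

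The remaining A genes, Abca12, Abca13, Abca14, Abca15 and Abca17, did not pass the filter. Abca12 is the ceramide transporter of skin. Abca17, whose span overlaps that of Abca3 by 138 bases, reached 10.8 normalized counts in IRKO replicate 2, and Abca13 reached 2.91. Abca12 and Abca14 stayed at or below 1.95, and Abca15 was at 0 in all 6 libraries.

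In subfamily B, 8 genes were tested, of which Abcb1a and Abcb4 rose, and Abcb6, Abcb8 and Abcb9 fell; scaled to the microglia list both rises turned negative and 7 genes were called lower. Abcb9, which carries peptides into lysosomes, had 2083 and 1663 normalized counts in the controls and 534, 610, 512 and 484 in IRKO. All IRKO values were less than the lower control by a wide margin. Abcb9 fell 3.49-fold, with a change of −1.80 ± 0.139 (adjusted p = 8.91e-06) and −3.22 scaled to the microglia list.

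The mitochondrial members Abcb6, Abcb8 and Abcb10 were lower in each IRKO library than in either control, and the first 2 passed the test. Abcb8, a transporter of the inner membrane, had 1240 and 1079 normalized counts in the controls and 409, 479, 597 and 542 in IRKO. Abcb8 fell 2.3-fold (−1.20 ± 0.161, adjusted p = 0.000261). Its span overlaps that of Cdk5, which stood at 2012 and 2273 in the group means, by 5163 bases, and the strand used in counting is not given in the sources used here. Abcb6, linked to porphyrin transport, had 290 and 316 in the controls and 200, 230, 213 and 204 in IRKO. It fell by 0.52 ± 0.136 (adjusted p = 0.0105), a call lost without control replicate 2 (−0.46, adjusted p = 0.0767).

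Abcb10, which supports haem synthesis, had 358 and 300 normalized counts in the controls and 218, 279, 282 and 254 in IRKO (−0.35 ± 0.157, adjusted p = 0.0846). Its groups did not overlap, but the change missed the threshold. Of 12 other genes of haem and iron-sulphur synthesis 6 fell and 2 rose, with a median of −0.50. Nfs1, the cysteine desulphurase (−1.57 ± 0.114), and Fech, ferrochelatase (−0.92 ± 0.114), fell, while Cpox, a haem pathway oxidase, changed by 0.92 ± 0.152 and Slc25a37, the iron importer mitoferrin, by 0.64 ± 0.152 as deposited, and by −0.49 and −0.78 scaled to the microglia list. Red blood cell markers fell in the same libraries, 6 of 6 tested, with a median of −7.01; they summed to 75535 and 161690 in the control libraries, against 244 to 2140 in IRKO. Alas2, the haem synthesis enzyme of red blood cells, was among them (−5.76 ± 0.667). Alas2 and the marker Slc4a1 passed the filter through their control values, so their falls are a description. The part of red blood cells in the haem gene and mitochondrial ABC values was not tested.

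Abcb1a and Abcb1b encode the P-glycoproteins, broad drug pumps. Abcb1a had 32.6 and 17.4 normalized counts in the controls and 45.6, 57.2, 40.8 and 60.4 in IRKO. The groups were apart, though counts were low, and Abcb1a rose by 1.04 ± 0.322 (adjusted p = 0.0212) and stood at −0.34 scaled to the microglia list. The call was lost without control replicate 2 (0.61, adjusted p = 0.185), without IRKO replicate 2 (0.98, 0.0528) and without IRKO replicate 4 (0.96, 0.0521). The Abcb1a span overlaps that of Rundc3b by 55994 bases, and Rundc3b stood at 85.6 in the controls and 177 in IRKO, a change of 1.05. Abcb1b had 39.4 and 23.2 in the controls and 36.7, 29.6, 40.8 and 36 in IRKO, with overlapping groups.

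Because the P-glycoprotein genes are paralogs that may share reads, their sum was also tested. It stood at 72 and 40.7 normalized counts in the controls and 82.2, 86.7, 81.6 and 96.4 in IRKO. The change of 0.67 ± 0.253 passed narrowly (adjusted p = 0.0485), but not with edgeR (0.64, adjusted p = 0.0725), DESeq2 (0.64, 0.0874), without control replicate 2 (0.26, 0.424) or without any of the IRKO libraries (0.62 to 0.69, adjusted p = 0.0679 to 0.0975), and it turned to −0.73 scaled to the microglia list. Of 15 endothelial markers 8 rose and 1 fell, with a median of 0.72 as deposited and −0.61 (none higher, 6 lower) scaled to the microglia list. Their sums were 2012 to 3016 in the controls and 2692 to 2883 in IRKO, of which Slc2a1, the marker that fell, made up 1720 and 869 in the controls. Their part in the Abcb1a and Abcg2 values was not tested.

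Abcb4, which flips phosphatidylcholine into bile, lies beside the P-glycoprotein genes on chromosome 5 (8893614 to 8959226). It had 141 and 164 normalized counts in the controls and 223, 247, 211 and 266 in IRKO. Every IRKO value was above both controls, and Abcb4 rose by 0.63 ± 0.158 (adjusted p = 0.00799), or stood at −0.78 scaled to the microglia list. The call was lost without control replicate 1 (0.52, adjusted p = 0.0677). Abcb5 was at 0 in all 6 libraries, and Abcb11, the bile salt export pump, did not pass the filter.

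In subfamily C, 9 genes were tested, of which Abcc3, Abcc5 and Abcc8 rose, Abcc4 fell, 4 did not pass, and Abcc9 was called higher after passing the filter through IRKO alone; scaled to the microglia list, Abcc5 and Abcc8 turned negative and no rise was called. Abcc3, an exporter of conjugated organic anions, had 377 and 310 normalized counts in the controls and 973, 1074, 906 and 1345 in IRKO. All 4 IRKO values were well above both controls. Abcc3 rose 3.1-fold (1.63 ± 0.169, adjusted p = 5.91e-05), stood at 0.22 scaled to the microglia list (adjusted p = 0.38), and was called under each of the other alternatives. Abcc5, an exporter of cyclic nucleotides and other anions, had 884 and 674 in the controls and 900, 1040, 1084 and 1307 in IRKO. The lowest IRKO value was barely above the higher control. Abcc5 rose by 0.48 ± 0.167 (adjusted p = 0.0368) and lost its call without control replicate 2 (0.28, adjusted p = 0.288), without IRKO replicate 2 (0.49, 0.0601), replicate 3 (0.47, 0.0657) or replicate 4 (0.38, 0.066), and without a variance trend (0.48, 0.0752).

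Abcc4, which exports cyclic nucleotides and prostanoids, was the C gene that fell. It had 191 and 124 normalized counts in the controls and 84.2, 67, 83.6 and 104 in IRKO. All IRKO values were below the controls, which differed from each other. Abcc4 fell by 0.87 ± 0.243 (adjusted p = 0.0137) and was not called without control replicate 1 (−0.56, adjusted p = 0.151). Abcc1, the exporter of glutathione conjugates and leukotriene C4, had 207 and 156 in the controls and 240, 197, 197 and 242 in IRKO. Its groups overlapped, with a 95% interval from −0.12 to 0.67. Abcc10, a broad drug exporter, had 133 and 73.6 in the controls and 63.4, 49.3, 70 and 126 in IRKO, and its groups overlapped through IRKO replicate 4.

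Abcc8 and Abcc9 are not exporters but the sulphonylurea receptors SUR1 and SUR2 of ATP-sensitive potassium channels. Abcc8 had 54 and 61 normalized counts in the controls and 93.1, 120, 138 and 108 in IRKO. Abcc9 had 4.5 and 6.78 in the controls and 15.8, 17.7, 16.5 and 19.5 in IRKO. Both were higher in every IRKO library. Abcc8 rose by 0.97 ± 0.212 (adjusted p = 0.00392), with −0.43 scaled to the microglia list. Abcc9 reached the filter only in the group where it is high, so its change of 1.49 ± 0.409, or 0.21 scaled to the microglia list, is a description and not a tested rise.

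The pore subunits of these channels were also measured, of which Kcnj8 is named after its value was seen. Kcnj11, the usual partner of Abcc8, averaged 271 ± 7.38 normalized counts over the controls (SD, n = 2) and 515 ± 74.5 over IRKO (SD, n = 4). Kcnj8, the partner of Abcc9 in mural cells, stood at 7.89 ± 1.57 and 24.7 ± 3.99. Kcnj11 rose as deposited, by 0.91 ± 0.154 (adjusted p = 0.000982), and turned to −0.51 scaled to the microglia list. Kcnj8, like Abcc9, reached the filter only in IRKO, and its change of 1.53 ± 0.366, or 0.22 in that scaling, is a description. Of 13 pericyte and smooth muscle markers, 5 were called higher and 2 lower, with Kcnj8 counted among the 5 though it is no support for a direction. Their sums were 3976 to 4477 in the controls and 3261 to 12989 in IRKO. Of 18 neuron markers 14 rose, with sums of 51201 to 64005 and 89568 to 112851. The part of either marker list in the Abcc8 and Abcc9 values was not tested.

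Abcc6, an ATP release transporter of liver, and Abcc12 passed the filter through IRKO values alone and were near its limit, at 8.71 and 9 and at 5.81 and 7.87 normalized counts in the controls, and at 7.89 to 16.8 and 5.91 to 12.7 in IRKO. Neither passed the test. Abcc2, the canalicular anion pump, did not pass the filter.

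Several members are best known from liver, and 4 of these, Abcb11, Abcc2, Abcg5 and Abcg8, were read in control replicate 2 and not in control replicate 1. Control replicate 2 held 15 reads of Abcb11, 6 of Abcc2, 6 of Abcg5 and 3 of Abcg8. No IRKO library held more than 2 reads of any of them. The other 3 of the 7 listed liver transporters, Abcb4, Abcc3 and Abcc6, did not share this difference. They stood at 141, 377 and 9 normalized counts in control replicate 1 and at 164, 310 and 8.71 in control replicate 2. The liver marker list summed to 8154 in control replicate 1 and 83652 in replicate 2, against 8748 to 19566 in IRKO, where 11 of its 13 tested genes were called lower and 1 higher. Most of the IRKO sums came from Ttr and Trf, which brain cells also make, with 11973 and 7504 in IRKO replicate 3. Alb, albumin, stood at 360 and 5125 in the controls and at 2.97 to 13.6 in IRKO. Serpina3k, Mup10, Gc and Fgb, defining liver transcripts, were at 0 in all 4 IRKO libraries. Like Serpina1e, Fga and Ahsg, they reached the filter only in the controls, and Alb and Apoh also needed the controls to pass. The falls of these liver genes are therefore a description and not tested falls. The part of liver RNA in the Abcb11, Abcc2, Abcg5 and Abcg8 values was not tested.

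In subfamily D, Abcd2, Abcd3 and Abcd4 fell. They were still called lower scaled to the microglia list, which lowers every tested ABC gene and so is no check on a fall. Abcd4, which acts in the lysosomal release of cobalamin, had 810 and 609 normalized counts in the controls and 144, 119, 144 and 143 in IRKO. Every IRKO value was far below both controls. Abcd4 fell 5.09-fold (−2.35 ± 0.165, adjusted p = 4.99e-06), the largest fall among tested ABC genes, and 4.5% of tested genes had a lower change. Abcd3, the abundant peroxisomal membrane protein PMP70, had 2175 and 2101 in the controls and 781, 819, 836 and 683 in IRKO. The groups were far apart and tight, and Abcd3 fell 2.75-fold (−1.46 ± 0.118, adjusted p = 1.22e-05). Abcd2, which carries very long-chain and polyunsaturated fatty acids, had 1246 and 1015 in the controls and 592, 543, 517 and 552 in IRKO. Abcd2 fell 2.04-fold (−1.03 ± 0.125, adjusted p = 0.000149), again with no overlap.

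The other peroxisome genes listed, such as import factors and enzymes of fatty acid oxidation, had 10 of 11 lower in IRKO and none higher, with a median of −1.12 as deposited and −2.54 scaled to the microglia list. Cat, catalase, averaged 3134 ± 53.4 normalized counts over the controls (SD, n = 2) and 679 ± 45.8 over IRKO (SD, n = 4), a change of −2.21 ± 0.11 (adjusted p = 6.87e-07). Abcd3, at −1.46, and Abcd2, at −1.03, lay on either side of this median. The astrocyte marker list had a median of −3.92 in the same libraries, and its part in the peroxisomal values was not tested.

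Abce1 and the Abcf genes act in translation rather than transport, and all 3 Abcf genes fell as deposited. The scaling to microglia markers, where they were also called lower, lowers every tested ABC gene and is no check on these falls. Abcf3 had 1568 and 1434 normalized counts in the controls and 991, 1023, 922 and 970 in IRKO. The groups were tight and apart, and Abcf3 fell by 0.62 ± 0.106 (adjusted p = 0.00104). Abcf1, which binds the initiation factor eIF2, had 1532 and 1640 in the controls and 1345, 1258, 1083 and 1214 in IRKO. Abcf2 had 1747 and 1549 in the controls and 1261, 1294, 1214 and 1089 in IRKO. Both lay below the controls in every IRKO library, by less than Abcf3. The changes were −0.38 ± 0.118 for Abcf1 (adjusted p = 0.0229) and −0.44 ± 0.116 for Abcf2 (adjusted p = 0.0106).

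These last 2 calls were not kept throughout. Under quantile normalization Abcf1 stood at −0.12 (adjusted p = 0.39) and Abcf2 at −0.18 (0.183). Without control replicate 1 they stood at −0.43 (adjusted p = 0.0651) and −0.35 (0.101), and without control replicate 2 Abcf1 stood at −0.33 (0.136).

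Abce1, which splits ribosomes after termination, had 719 and 740 normalized counts in the controls and 839, 819, 734 and 670 in IRKO. The IRKO values lay on both sides of the controls, and the 95% interval of the change was −0.22 to 0.35, or a change of −1.35 scaled to the microglia list. Among 11 other genes of ribosome recycling and stress signalling 5 fell and 1 rose, with a median of −0.25. Eif2d, a recycling factor (−0.68 ± 0.155), and Hbs1l, a ribosome rescue factor (−0.53 ± 0.125), fell, while Gcn1, a sensor of stalled ribosomes, rose by 0.68 ± 0.16 as deposited and stood at −0.74 scaled to the microglia list.

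Sorted by role rather than by letter, the 12 tested sterol and lipid exporters had 4 higher and 2 lower with a median of −0.01 (none higher and 9 lower scaled to the microglia list). The 10 tested drug and anion exporters had 4 higher and 1 lower with a median of 0.41 (none higher and 5 lower in that scaling). The 4 translation genes had 3 lower with a median of −0.41. Against the background of 26.6% higher and 29.0% lower as deposited, these small groups are described only by their counts. In the microglia scaling the background was 77 higher and 11563 lower of 14698 genes.

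Around the sterol exporters, 21 genes of liver X receptor signalling and sterol handling had 3 higher and 12 lower, with a median of −0.48 as deposited and −1.90 scaled to the microglia list. Srebf1, a lipid synthesis regulator induced by that receptor (−3.23 ± 0.152, adjusted p = 5.28e-07), and Lcat, which esterifies cholesterol on lipoproteins (−5.35 ± 0.272, 7.78e-07), fell. Nceh1, a cholesteryl ester hydrolase of macrophages, rose by 1.09 ± 0.178 (adjusted p = 0.000809) and Mylip, a receptor target that degrades lipoprotein receptors, by 0.94 ± 0.203 (0.00383), and both turned negative scaled to the microglia list (−0.33 and −0.48). Abcg1, itself a target of the receptor, thus stood at 1.43 where Srebf1 stood at −3.23 and Abca1 at 0.46. Apoe, the main lipid acceptor in brain and named here after its value was seen, was among those that fell (−4.07 ± 0.25). All 20 astrocyte markers fell in the same libraries, with a median of −3.92, and their part in the values of these sterol genes was not tested.

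Of 11 genes of barrier transport and potassium channels, 4 were called higher and 4 lower. Kcnj8, counted among the higher genes, reached the filter only in IRKO and is no support for a direction. Slco2b1, an organic anion uptake carrier also found in microglia, rose by 1.90 ± 0.189 (adjusted p = 4.6e-05), or 0.48 scaled to the microglia list. Slco1c1, a thyroid hormone carrier, and Mfsd2a, a lipid carrier of brain endothelium, fell (−4.41 ± 0.214 and −4.00 ± 0.34). Abcb1a and Abcg2, which act at the same barrier, had changes of the other sign to Slco1c1 and Mfsd2a as deposited, though not scaled to the microglia list (−0.34 and −0.27). The listed barrier genes did not share a direction. Slc2a1 and Slc7a5 also fell (−1.40 and −1.22), while Cldn5 rose by 0.57 ± 0.158 as deposited and stood at −0.85 scaled to the microglia list. Slco1a4, Lsr and Ocln did not pass (0.57, 0.49 and 0.16). Astrocyte markers had a median of −3.92 in the same libraries, and endothelial markers of 0.72 (−0.61 scaled to the microglia list). The part of either list in the values of these barrier genes, Slco1c1 and Mfsd2a included, was not tested.

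Outside the symbol rule the table holds 3 more ABC genes under other names. Tap1, which carries peptides for antigen presentation, stood at 188 ± 14 (SD, n = 2) and 312 ± 68.4 (SD, n = 4) and rose by 0.71 ± 0.194 (adjusted p = 0.0124), or turned to −0.71 scaled to the microglia list. Tap2, its partner, had a change of −0.14 ± 0.184 (adjusted p = 0.552), and Cftr, the chloride channel, of 0.58 ± 0.463 (0.312). Of 8 peptide loading genes 5 rose and 2 fell, led by the immunoproteasome subunits Psmb9 (1.42 ± 0.197) and Psmb8 (1.32 ± 0.186), which stood at 0.00 and −0.09 scaled to the microglia list; the chaperones Calr (−0.61 ± 0.147) and Pdia3 (−0.47 ± 0.139) fell.

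Both scalings are set side by side for 37 tested genes in the plot of deposited and microglia-scaled changes. The scaling shifts the tested ABC genes by nearly the same amount (−1.42 to −1.27), so it mostly keeps their order and moves the zero line. Of the 12 genes that rose, 5 stayed above 0 in it and 7 turned below 0. All 12 that fell were still called lower. As the scaling moves every tested ABC gene down, it is no check on a fall.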

How the data were processed

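Ribosome-bound RNA of 2 control and 4 IRKO libraries was analysed. The submitters' processing notes name Bowtie2 and GRCm38.p6, and the sources used here do not give the counter, annotation, strandedness or normalization tool. The deposited values are a signal per gene, read counts divided by 1 size factor per library, per the file headers and as the values show: 100% of values were whole multiples, within 0.05 reads, of the smallest value above 0 in their library. In IRKO replicate 1 a read was worth 0.991, too near 1 for a step test, so count-based tests were repeated on the other 5 libraries. All 49 symbols matched the RefSeq table of GRCm38.p6, from which spans were taken. That table gives no transcript lengths, so levels were not compared between genes, and no sequence was used here.

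The 14698 genes that reached 10 in 2 or more libraries were tested on log2(value + 1) with limma 3.58.1 in R 4.3.3 (variance trend, all 6 libraries, two-sided p, Benjamini-Hochberg over all tested genes, threshold 0.05). Fold changes are on that scale and understate the change of low genes; an adjusted p is limma's unless edgeR or DESeq2 is named. Separate animals are not stated in the labels, so the p-values reflect only the spread between these libraries, which may be technical. No pair of libraries within a group agreed within sampling noise (chi-square per degree of freedom 16.8 to 36.9). The fit was also run on simulated data with far fewer changed genes than were called here, so that run is no check on these calls. Paralog sums were fitted as extra rows.

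Family members, lists and tests were chosen with earlier results of these data known. The genes given in full were chosen by a rule: in each subfamily up to 4 tested members with the smallest p and groups that do not overlap and 2 with the highest mean, 7 members named beforehand, and up to 2 genes of each partner list per direction. As alternatives, the pseudocount was set to 0.5 or 5, the filter was dropped or raised to 50, and the fit was repeated with TMM, quantile and microglia-list scaling, no variance trend, edgeR 4.0.16 (3836 genes higher, 4232 lower) and DESeq2 1.42.0 on recovered reads, the replicate block and each library left out. Some genes are not reported here. The tests on 5 libraries were added after seeing the data.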

Additional observations from a re-analysis of the deposited data

Results flagged for a closer look

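In 2 of the 39 tested ABC genes, a single IRKO library lay far from the other 3 by Dixon's criterion (its gap to the nearest over the whole range), which chance alone meets in about 1 of 20 groups. Abca9 stood at 1179 normalized counts in IRKO replicate 4 and at 428 to 503 in the other IRKO libraries. Abcd4 stood at 119 in IRKO replicate 2 and at 143 to 144 in the others, which is far only because those 3 are so close.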

How the results depend on the processing

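Of the 24 calls, 13 (7 rises and 6 falls) were kept under all 18 alternatives other than microglia-list scaling: Abca8b, Abca9, Abcb8, Abcb9, Abcc3, Abcc8, Abcd2, Abcd3, Abcd4, Abcf3, Abcg1, Abcg2 and Abcg3. Scaled to the microglia list, 0 ABC genes were higher and 28 lower, against 12 and 12. In that scaling 77 of all 14698 tested genes were higher and 11563 lower. By subfamily that scaling gave 0 higher in each and 8 lower in A, 7 in B, 4 in C, 3 in F and 1 in G, with the remaining 5 in D and E. There the changes turned negative for Abca1 (−0.96), Abca7 (−1.26), Abca8b (−0.46), Abcb1a (−0.34), Abcb1b (−1.16), Abcb4 (−0.78), Abcc1 (−1.14), Abcc5 (−0.94), Abcc8 (−0.43), Abce1 (−1.35), Abcg2 (−0.27) and the sums of Abcb1a with Abcb1b (−0.73) and Abca8a with Abca8b (−1.18). The markers used there were themselves mostly higher in IRKO.

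Quantile normalization left 1 fall each in A and F, and edgeR on 5 libraries 1 fall in A. The labels do not say that replicate numbers pair the samples. Deviations of same-numbered libraries correlated at −0.082 (number 1) and 0.079 (number 2), and those of other pairs at −0.079 to 0.082. The deviations of 2 controls mirror each other, so these values cannot decide on pairing. In the replicate block, IRKO replicate 3 and IRKO replicate 4 have no control of the same number and carry no weight in the change. With that block 10 ABC genes were higher and 9 lower, against 3244 and 3691 of all 14698 tested genes. By subfamily there was 1 rise in B, 2 in C and 1 fall in F. Abca8a, Abcb1a, Abcb6, Abcc5, Abcc9, Abcf1 and Abcf2 were not called there. Abca1 and Abca2 were called there, on the libraries numbered 1 and 2 alone. Leaving out each library in turn gave 9 to 12 higher and 7 to 13 lower in the family, 2 to 3 rises and 0 to 3 falls in A, 1 to 2 and 2 to 3 in B, 3 to 4 and 0 to 1 in C, 3 falls in D, 1 to 3 falls in F and 3 rises in G. Over all genes, too, each of these fits gave fewer calls than all libraries did. Without an IRKO library 3435 to 3663 genes were higher and 3954 to 4150 lower, and without a control fewer still. The cause of these shifts was not tested. Counting error weighs most on Abca6, Abcc6, Abcc9 and Abcc12, which stayed under 20 normalized counts in every library.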

Other observations

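The 2 control libraries differed in the ABC genes. Of the 39 tested ABC genes, 29 (74.4%) were lower in control replicate 2 than in replicate 1, with a median log2 ratio of −0.18, where 52.8% of 14646 tested genes were lower and the median was −0.02. Among IRKO libraries, replicate 4 held the highest value for 16 of the 39 and the lowest for 5. These are counts over single libraries, with no test.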
